A study of Drosophila melanogaster with 9 samples.

Results

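Brains of fasted flies that had then fed on glucose were compared here with brains of flies that stayed fasted, across all genes. The comparison rests on the 6 samples whose records carry the condition refed or fasted, 3 of each, out of 9 samples in the series. The other 3 samples, from sated flies, entered no test of the main analysis. Their levels are given beside the genes past the threshold and beside a few other named genes. Of the 17489 genes in the files, 9025 had enough counts in the 6 samples to be tested.

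All flies were males of the strain w1118CS, a white-eyed laboratory stock, kept on the control diet of the study (CD in the sample titles) in groups of 25, and 7 days old. Refed flies spent 16 h without food on wet tissue and then fed freely on 400 mM D-glucose for 2 h. Fasted flies had only water for 20 h in all, and sated flies were kept from food for 1 h. Total RNA came from central brains, with 10 pooled brains per sample, and the libraries were depleted of ribosomal RNA and counted by strand. Glucose was the only food of the refed flies, so feeding in general and glucose in particular cannot be told apart in this comparison. Refed and fasted flies also differed in the length of the fast, 16 h against 20 h, and fasted flies were dissected later on the same day. Feeding state thus cannot be told apart from length of fast or time of day for any gene. The central brain sample mixes neurons, glia and adhering tissue, so fewer cells of a type and less RNA per cell cannot be told apart either.

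The fly brain meets a fast and a meal through several linked systems. Stored triglyceride is broken down by lipases at the surface of lipid droplets, and sugar crosses the glial blood-brain barrier through transporters of the major facilitator superfamily. Insulin-like peptides, adipokinetic hormone and limostatin, which come from cells in or next to the brain, report the feeding state, fed or fasted, to the rest of the body. Dietary sugar is also known to act on transcription through Mondo and its targets, among them sugarbabe and the activin-like ligand Dawdle.

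Reads counted on the gene strand numbered 7014586 to 7741902 in refed libraries and 4957138 to 7890221 in fasted libraries. The libraries differed in how many reads lay on the strand opposite to the gene. This share was 12.3%, 12.4% and 9.72% in refed libraries 1, 2 and 3, against 24.6%, 28.5% and 9.59% in fasted libraries 1, 2 and 3, and it was 20.6% in sated library 2. The share of reads that mapped to several places followed it, at 7.902%, 8.41% and 7.86% in refed libraries and 13.8%, 16.03% and 7.19% in fasted libraries. Fasted libraries 1 and 2 thus stand apart from the other 4, and the values of several genes are given also without them. Neuronal markers summed to between 7173 and 8400 CPM in refed brains and between 7972 and 8311 CPM in fasted brains, where CPM is the count scaled to library size with TMM factors. Glial markers summed to 1956 to 2264 CPM in refed brains and 1981 to 2224 CPM in fasted brains.

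After Benjamini-Hochberg correction of the p-values from edgeR's quasi-likelihood test, 10 of 9025 genes (0.111%) were under an adjusted p-value of 0.05. Of these, 5 were higher and 5 lower in refed brains (0.0554% each). An unadjusted p-value under 0.05 was reached by 611 genes (6.77%), of which 240 (2.66%) were higher and 371 (4.11%) lower in refed brains. The 3 refed and the 3 fasted values did not overlap for 1114 genes (12.3%), with 685 (7.59%) higher and 429 (4.75%) lower. The median log2 fold change of all genes tested, refed over fasted, was -0.0083, with quartiles at -0.11 and 0.079. Of the 9025 genes, 4254 were higher in refed brains, which is the background for the counts of higher and lower genes in each list. The genes that passed encode a pair of lipases, a secreted hormone, a nuclear receptor, a pair of transporters, an amino acid enzyme, a phosphatase and 2 further proteins. Of the 10 genes, 7 belong to one of 42 function lists, which held 1251 genes of the files, 1027 of them tested. The lists and their members were chosen with earlier results of these data known, so this count is no measure of enrichment.

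**Figure D1:**
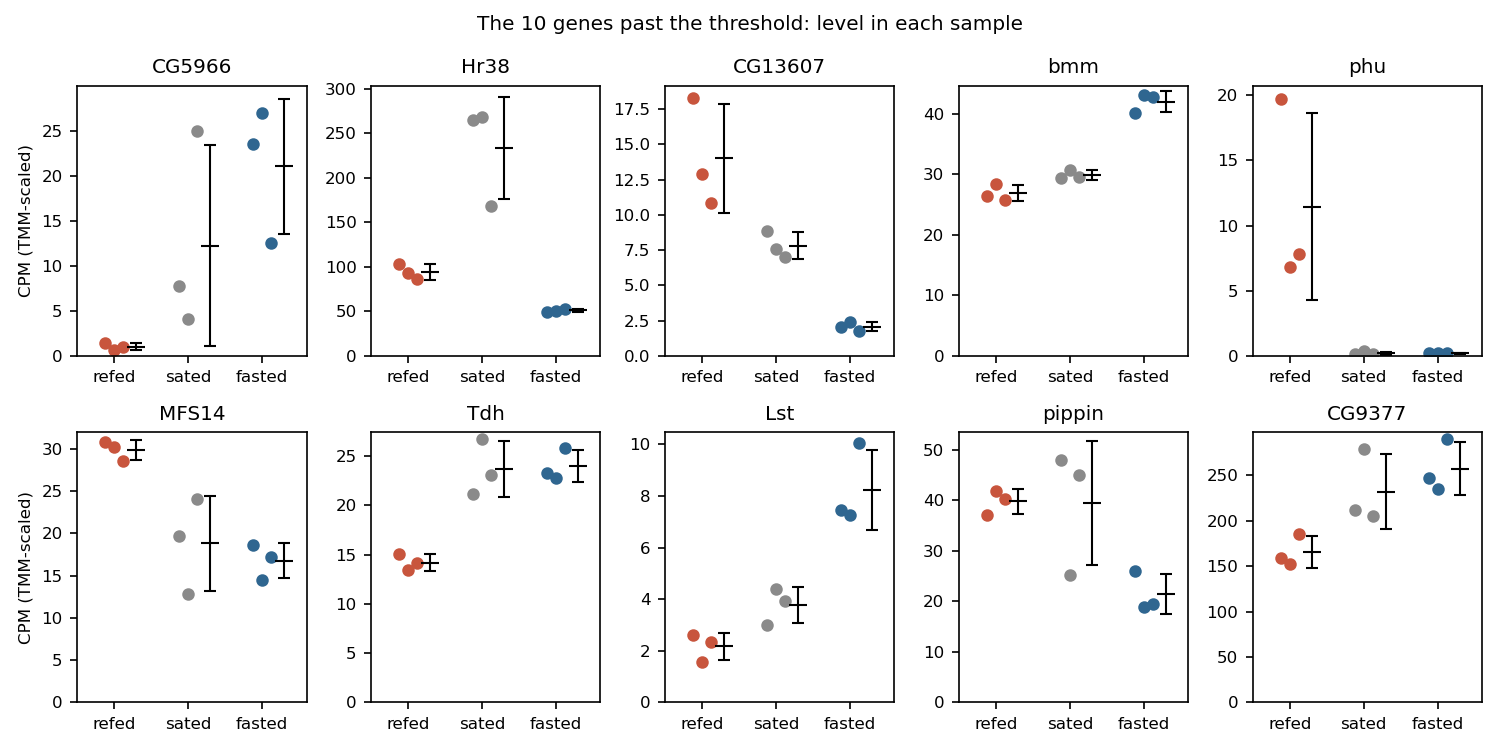
Level of each of the 10 genes past the threshold in every sample, in CPM (TMM-scaled counts), for refed, sated and fasted brains. Points are samples and black bars are the mean ± SD of 3 samples. Refed and fasted points do not overlap in any panel, and phu is near 0 in both sated and fasted brains.

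Lipid breakdown held the lowest p-value of the comparison. CG5966, which is related to pancreatic lipases (chrX:5988791-5992640), was at 1.43, 0.657 and 0.960 CPM in refed brains, against 23.5, 27.0 and 12.6 CPM in fasted brains. All refed samples were low and lay below all fasted ones, while the 3 sated samples spread from 4.04 to 24.9 CPM. CG5966 fell by 4.34 on the log2 scale (standard error, SE, 0.38, with an adjusted p of 0.00616 in edgeR). It passed the threshold in all 17 alternative analyses that could test it, at -3.61 with fasted libraries 1 and 2 left out. brummer (bmm, chr3L:14776496-14786412), the fly form of adipose triglyceride lipase, was at 26.5, 28.4 and 25.8 CPM in refed brains, against 40.1, 43.1 and 42.8 CPM in fasted brains. Its values were tight within each group and did not overlap, and sated brains, at 29.4, 30.8 and 29.5 CPM, lay close to the refed ones. bmm fell by 0.66 on the log2 scale (SE 0.08, edgeR adjusted p = 0.0225). Leaving out any one library other than fasted library 3 raised its adjusted p-value in edgeR above the threshold, to between 0.0580 and 0.0860, while its log2 fold change stayed between -0.70 and -0.62.

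The other lipid droplet genes did not pass the threshold. Lsd-1, the fly perilipin 1 that coats lipid droplets and admits lipases to them, was at 21.9, 13.9 and 10.6 CPM in refed brains, against 4.10, 5.64 and 3.18 CPM in fasted brains. Its groups did not overlap, with a log2 fold change of 1.87 (SE 0.31, edgeR adjusted p = 0.120). Hormone-sensitive lipase (Hsl) was at 73.7, 73.0 and 74.2 CPM in refed brains and 63.0, 68.9 and 64.3 CPM in fasted brains, a log2 fold change of 0.16 (adjusted p = 0.705 in edgeR). The sign for Lsd-1 and Hsl was thus opposite to that of the 2 lipases that passed. Of the 13 lipase and lipid droplet genes tested, 2 passed as lower and 0 as higher, and the median log2 fold change was -0.037. The 10 remaining members besides Lsd-1 and the 2 lipases, among them perilipin 2 (Lsd-2) at -0.024, lay between -0.34 and 0.16.

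Fatty acid synthesis and oxidation showed no gene past the threshold. FASN1, a fatty acid synthase, was at 1317, 1197 and 1229 CPM in refed brains, against 1010, 1153 and 986.1 CPM in fasted brains. Its groups did not overlap, with a log2 fold change of 0.24 (SE 0.07, edgeR adjusted p = 0.688). ATP citrate lyase (ATPCL), which makes cytosolic acetyl-CoA, had 0.16, and acetyl-CoA carboxylase (ACC), the committed step of synthesis, had -0.19 (adjusted p = 0.705 for both in edgeR). The acyl-CoA synthetase bgm had 0.54 with overlapping groups. Over 13 synthesis genes the median log2 fold change was 0.026, and over 15 genes of fatty acid oxidation and ketone bodies it was -0.064. Among the oxidation genes, the thiolase yip2 had -0.48 and the beta subunit of the trifunctional protein (Mtpbeta) had -0.26, while the electron transfer flavoprotein subunit Etfb had 0.29.

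Among hormonal and nutrient signals, limostatin was the gene that passed. Limostatin (Lst, chr2R:16574579-16576586) is a peptide hormone of the corpora cardiaca that is known to restrain insulin secretion during starvation. It was at 2.596, 1.58 and 2.33 CPM in refed brains, against 7.46, 7.25 and 10.0 CPM in fasted brains. All refed values lay below all fasted ones, and sated brains were between them at 2.998, 4.39 and 3.94 CPM. Lst fell by 1.95 on the log2 scale (SE 0.26, edgeR adjusted p = 0.0348), and by 2.21 without fasted libraries 1 and 2 (adjusted p = 0.0445 in edgeR). The counts behind these levels were 12 to 20 in refed and 36 to 79 in fasted libraries. Adipokinetic hormone (Akh), the other product of the corpora cardiaca and a gene looked up after its values were seen, was at 56.2, 47.4 and 0.412 CPM in refed brains, against 84.5, 39.7 and 27.9 CPM in fasted brains. Refed library 3 thus held little Akh RNA, whereas its Lst level lay between those of the other refed libraries. The part of corpora cardiaca tissue in the Lst difference was not tested. Without refed library 3, the log2 value for Lst was -1.99, with an edgeR adjusted p of 0.0903. Only the analysis without fasted library 3 kept Lst past the threshold among the 6 with 1 library left out, and the adjusted p-values of the other 5 were 0.0553 to 0.191.

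Genes of insulin, TORC1 and sugar signalling differed little as groups. Of 19 insulin signalling and FOXO genes, 0 passed, 15 were lower in refed brains, and the median log2 fold change was -0.069. Thor (4E-BP), a FOXO target that represses translation, was at 4.28, 5.25 and 3.29 CPM in refed brains, against 6.34, 8.06 and 5.34 CPM in fasted brains. The groups barely separated, with a log2 fold change of -0.62 (SE 0.25, edgeR adjusted p = 0.705). In the list of 24 TORC1, REPTOR and energy stress genes, which holds Lst, no other gene passed, and the median was -0.0089. Sestrin (Sesn), an inhibitor of TORC1, had -0.21 (adjusted p = 0.705 in edgeR). Of 15 sugar-sensing and lipid transcription factor genes, 0 passed. sugarbabe (sug), a zinc-finger factor induced by sugar, was at 2.73, 2.76 and 1.92 CPM in refed brains, against 0.373, 0.604 and 0.127 CPM in fasted brains. Over each group this was 56 counts in refed and 6 in fasted libraries, a ratio of 7.52 with an exact 95% counting interval of 3.25 to 21.4. Its adjusted p-value was 0.160 in edgeR. Dawdle (daw), an activin-like ligand, was at 19.5, 15.4 and 15.9 CPM in refed brains, against 10.6, 9.06 and 9.91 CPM in fasted brains, with a log2 fold change of 0.76 (SE 0.14, edgeR adjusted p = 0.138). The groups of sug and daw did not overlap, and Mondo itself had a log2 fold change of -0.036 (SE 0.05).

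The nuclear receptor Hr38 (chr2L:20683462-20714588), the fly member of the NR4A family and a marker of recent neuronal activity, rose in refed brains. It was at 103, 92.6 and 86.0 CPM in refed brains, against 49.8, 50.8 and 53.1 CPM in fasted brains. The fasted values were nearly equal and the refed values all lay well above them, while sated brains were higher still at 265, 268 and 168 CPM. The log2 fold change was 0.86 (SE 0.08, edgeR adjusted p = 0.00616). It was between 0.80 and 0.93 with any one library left out and 0.82 without fasted libraries 1 and 2, where the adjusted p-value was 0.0630 in edgeR. Without fasted library 1 the adjusted p-value of Hr38 was 0.0569 in edgeR, and in the fit of all 9 samples it was 0.102. None of the other activity-regulated genes passed the threshold in edgeR. Of the 17 tested, Hr38 included, 6 were higher and 11 lower in refed brains, and the median was -0.061. Besides Hr38, CG8910 was higher without overlap of the groups, at 119.3, 116.3 and 122.5 CPM in refed brains, against 104.3, 108.6 and 115.9 CPM in fasted brains (log2 fold change 0.11, edgeR adjusted p = 0.717). stripe (sr), the fly EGR factor, was at 86.1, 83.9 and 71.2 CPM in refed brains and 91.0, 77.3 and 84.6 CPM in fasted brains. CG13055 and Mef2 had log2 fold changes of -0.41 and -0.19 without overlap of the groups (adjusted p = 0.697 and 0.589 in edgeR). Of 17 nuclear receptor genes, Hr38 alone passed.

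Transport across membranes gave 2 genes past the threshold, both higher in refed brains. pippin (CG4797, chr2R:23812185-23818327), a predicted sugar transporter, was at 37.1, 41.9 and 40.3 CPM in refed brains, against 25.9, 18.9 and 19.4 CPM in fasted brains. The groups did not overlap, and sated brains spread across both, at 48.0, 25.3 and 45.0 CPM. pippin rose by a log2 fold change of 0.88 (SE 0.12, edgeR adjusted p = 0.0378), and by 1.03 without fasted libraries 1 and 2 (adjusted p = 0.0445). With both strands counted together, the log2 fold change was 0.91 and the adjusted p-value 0.608 in edgeR. MFS14 (chr2R:18796975-18803727), a transporter of the SLC17 type, was at 30.8, 30.2 and 28.5 CPM in refed brains, against 18.7, 14.5 and 17.2 CPM in fasted brains. Sated brains were at 19.6, 12.8 and 24.0 CPM. MFS14 rose by 0.81 (SE 0.10, edgeR adjusted p = 0.0309). Without fasted libraries 1 and 2 its log2 fold change was 0.79 and its adjusted p-value 0.217.

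The rest of the transporter lists went both ways. Only 10 of 22 listed sugar transporters had enough counts to be tested, and their median log2 fold change was -0.14. The sign of this median turned without fasted library 2, to 0.014, and it was 0.074 without fasted libraries 1 and 2. CG3168, listed among the sugar transporters, was at 323, 373 and 318 CPM in refed brains, against 276, 233 and 258 CPM in fasted brains. Its groups did not overlap (log2 fold change 0.39, SE 0.08, edgeR adjusted p = 0.191). The trehalose transporter Tret1-1, which perineurial glia use to take up trehalose, was at 164, 160 and 163 CPM in refed brains, against 221, 168 and 208 CPM in fasted brains (log2 fold change -0.31, adjusted p = 0.674 in edgeR). nebu had -0.14 and the glucose transporter Glut1 had -0.0038. Among 14 SLC17-type genes the median was -0.029. CG3036 was at 29.1, 16.8 and 30.6 CPM in refed brains, against 42.9, 53.2 and 52.9 CPM in fasted brains, and MFS9 at 12.1, 10.9 and 16.2 CPM against 9.51, 8.66 and 7.75 CPM. The 2 genes thus differed in opposite directions without overlap, with log2 fold changes of -0.98 and 0.59 (adjusted p = 0.188 and 0.697 in edgeR). None of 23 amino acid transporters passed edgeR's threshold, and 4 had an unadjusted p-value under 0.05, against 6.77% of all genes tested. The list's values stayed between -0.36 and 0.22. sobremesa (sbm), a transporter of the SLC7 type, had 0.22, and the GABA transporter Gat had -0.22.

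In serine, glycine and one-carbon metabolism, 1 of 17 genes passed the threshold and 13 had a log2 fold change below 0. This pathway turns serine and threonine into glycine and one-carbon units for nucleotide and methionine synthesis. Threonine dehydrogenase (Tdh, chr3L:20466944-20469592) was at 15.1, 13.4 and 14.1 CPM in refed brains, against 23.3, 22.8 and 25.8 CPM in fasted brains. The groups were tight and far apart, and sated brains, at 21.1, 26.7 and 23.1 CPM, were like fasted ones. Tdh fell by 0.77 on the log2 scale (SE 0.10, edgeR adjusted p = 0.0319), and had -0.87 without fasted libraries 1 and 2 (adjusted p = 0.185). The median log2 fold change of the list was -0.52, the farthest from 0 of the 42 lists, against -0.0083 for all genes tested. Because list members were chosen with earlier results of these data known, this rank is descriptive only. The SD of the list's median between replicates was 0.13, and the median was -0.33 without fasted libraries 1 and 2. With 1 library left out it ranged from -0.65 to -0.21, and the value nearest 0 was the one without refed library 3.

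Other enzymes of serine synthesis and use did not pass. astray (aay), the phosphoserine phosphatase that makes serine, was at 49.1, 37.7 and 43.5 CPM in refed brains, against 71.2, 60.8 and 69.1 CPM in fasted brains. Its groups did not overlap (log2 fold change -0.64, SE 0.10, edgeR adjusted p = 0.0836). Serine hydroxymethyltransferase (Shmt), which splits serine into glycine and a one-carbon unit, was at 23.2, 15.6 and 19.9 CPM in refed brains, against 26.7, 25.2 and 31.1 CPM in fasted brains (log2 fold change -0.52, adjusted p = 0.674). Sarcosine dehydrogenase (Sardh) had -0.91 with overlapping groups. CG8665, a 10-formyltetrahydrofolate dehydrogenase that discards one-carbon units as CO2, went the other way, at 25.8, 9.98 and 16.1 CPM in refed brains, against 4.66, 3.83 and 1.65 CPM in fasted brains. The lowest refed value was well above the highest fasted one, with a log2 fold change of 2.41 (SE 0.42, edgeR adjusted p = 0.127). Methionine cycle genes lay near 0, at -0.046 for Sam-S and -0.052 for Ahcy.

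Purine synthesis had no gene past the threshold. Of the 13 genes tested, 1 was higher and 3 lower without overlap of the groups, against 7.59% and 4.75% of all genes tested. Gart, which carries out 3 steps of the pathway, was at 29.3, 19.4 and 17.6 CPM in refed brains, against 40.1, 40.9 and 48.5 CPM in fasted brains. CG11089, which RefSeq lists under the synonym atic for the last enzyme of the pathway, was at 17.1, 11.6 and 13.4 CPM in refed brains, against 34.3, 19.3 and 40.5 CPM in fasted brains. Their log2 fold changes were -0.98 and -1.19, and edgeR's adjusted p-values were 0.127 and 0.216. CG11089 had -1.53 and an adjusted p-value of 0.0286 without fasted libraries 1 and 2. Adenylosuccinate lyase (Adsl) had -0.38, at 11.7, 12.3 and 12.6 CPM in refed brains and 15.3, 15.9 and 16.1 CPM in fasted brains. Prat2, which catalyses the first step, was higher, at 34.3, 17.3 and 11.4 CPM in refed brains, against 7.46, 6.65 and 5.59 CPM in fasted brains (log2 fold change 1.68, adjusted p = 0.342 in edgeR). Its paralog Prat had 0.13. The pathway thus held values of both signs, and the median over 13 genes was -0.034. Of the 13, 5 had an unadjusted p-value under 0.05 as lower and 1 as higher, against 4.11% and 2.66% of all genes tested.

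None of 10 genes of branched-chain amino acid breakdown passed the threshold in edgeR. The groups of 2 of them did not overlap, against 12.3% of all genes tested. The branched-chain aminotransferase Bcat, the first enzyme, was at 13.6, 9.33 and 11.5 CPM in refed brains, against 29.3, 20.3 and 36.6 CPM in fasted brains. The groups did not overlap, and sated brains, at 8.69, 10.0 and 11.8 CPM, were close to refed ones. Its log2 fold change was -1.35 (SE 0.21, edgeR adjusted p = 0.0831), and -1.68 without fasted libraries 1 and 2 (adjusted p = 0.0176). The dehydrogenase subunits that act next lay at 0.051 for BckdhA and 0.10 for BckdhB. CG17896 was at 99.0, 102 and 104 CPM in refed brains, against 95.3, 90.6 and 90.3 CPM in fasted brains, without overlap (log2 fold change 0.13, edgeR adjusted p = 0.705). The median over the 10 genes was -0.064.

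**Figure D2:**
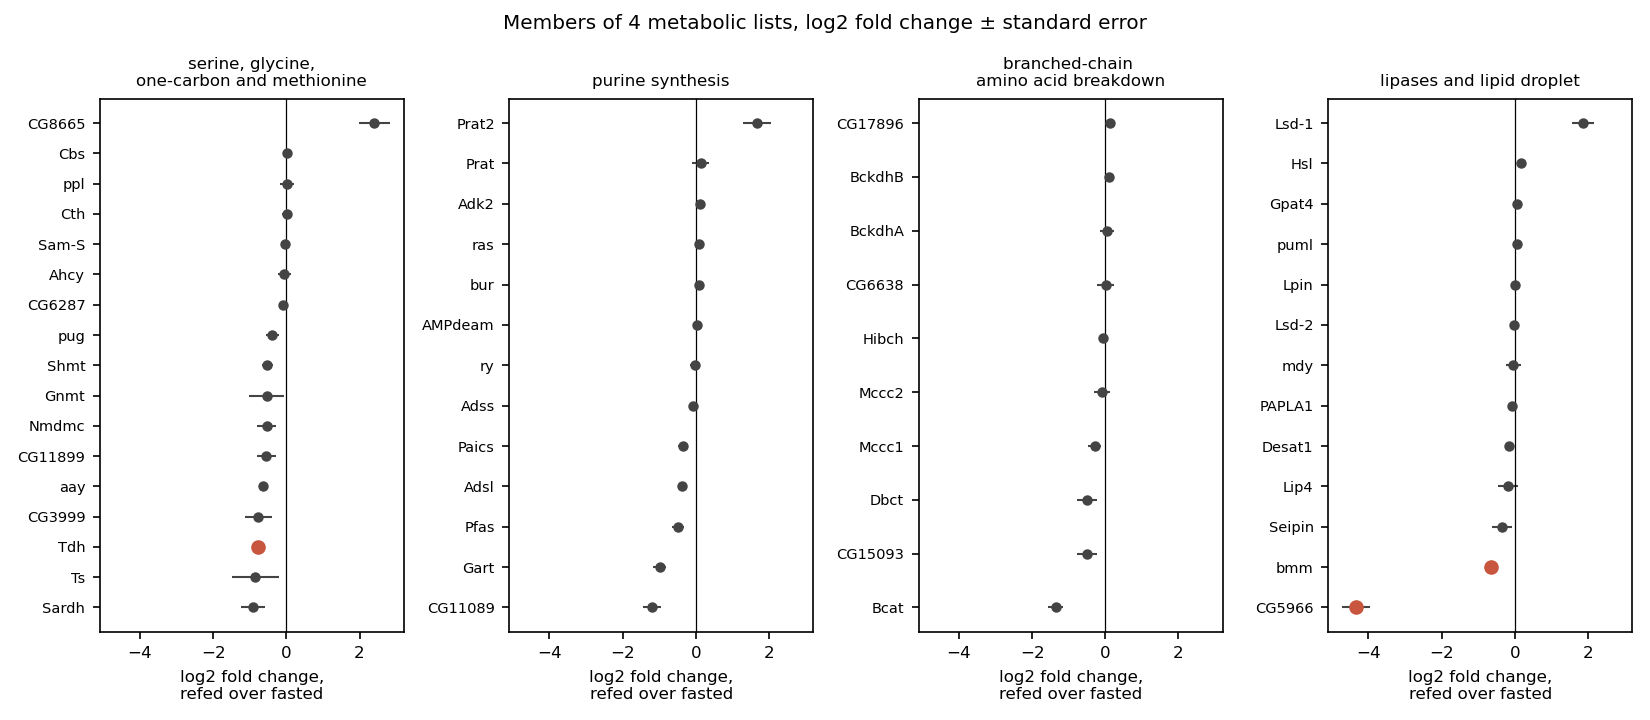
Log2 fold change (refed over fasted) of each tested member of 4 metabolic lists. Points are genes, bars are SE from edgeR, and larger red points passed the threshold (Tdh, bmm and CG5966). CG8665, Prat2 and Lsd-1 lie on the higher side of their lists, which also hold lower members such as Sardh, Tdh, CG11089 and CG5966.

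The remaining 3 genes past the threshold fell in no function list. phu (chr3R:9494801-9496723), which RefSeq lists under the synonym Alp3 for an alkaline phosphatase, was at 19.7, 6.83 and 7.82 CPM in refed brains, against 0.187, 0.201 and 0.254 CPM in fasted brains. These are 152, 52 and 57 counts in refed libraries and 1, 1 and 2 counts in fasted libraries. The ratio over the groups was 52.6, with an exact 95% counting interval of 20.3 to 194.3, and sated brains were at 0.1499, 0.352 and 0.127 CPM. phu rose in refed brains (log2 fold change 5.58, SE 0.66, edgeR adjusted p = 0.0225). It passed in 12 of the 17 alternatives that could test it, but not without fasted library 1 (adjusted p = 0.142) or fasted library 2 (0.0580). CG13607 (chr3R:24114043-24116322) was at 18.3, 12.9 and 10.8 CPM in refed brains, against 2.05, 2.42 and 1.78 CPM in fasted brains, with sated brains between at 8.84, 7.56 and 6.99 CPM. The 3 groups did not overlap, and CG13607 rose by 2.75 (SE 0.26, edgeR adjusted p = 0.00616). It passed in 17 of 18 alternatives, the exception being the analysis without fasted library 1 (0.0574). CG9377 (chr2L:13359901-13361565) is listed by RefSeq under the synonym SPH166 for a serine protease homolog. It was at 159, 152 and 185 CPM in refed brains, against 248, 235 and 290 CPM in fasted brains. Sated brains were at 212, 279 and 205 CPM. CG9377 fell by 0.66 on the log2 scale (SE 0.09, edgeR adjusted p = 0.0389), and had -0.82 without fasted libraries 1 and 2 (adjusted p = 0.0410).

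Central carbon metabolism was close to the background of all genes. Of 15 glycolysis genes 0 passed, and the median log2 fold change was 0.020. Lactate dehydrogenase (Ldh) was the only glycolysis gene with an unadjusted p-value under 0.05, at 2.47, 2.36 and 3.02 CPM in refed brains, against 2.61, 27.4 and 8.004 CPM in fasted brains. Fasted library 2 was far above the others, and the groups overlapped. Over 22 genes of the TCA cycle and pyruvate entry the median was 0.016 and the extremes were -0.041 and 0.14. Pdhb, a pyruvate dehydrogenase subunit, had the largest value, at 99.7, 101 and 110 CPM in refed brains and 90.8, 89.0 and 98.2 CPM in fasted brains. The 65 nuclear genes of oxidative phosphorylation had a median of 0.0067, and 12 mitochondrially encoded ones had -0.021. In glycogen and trehalose metabolism, the branching enzyme AGBE was at 66.6, 52.2 and 50.6 CPM in refed brains, against 49.99, 45.5 and 45.4 CPM in fasted brains, and the debranching enzyme CG9485 had a log2 fold change of 0.19 with overlapping groups. The pentose phosphate list was the second farthest below 0 among metabolic lists, with 7 of 8 genes lower and a median of -0.28. Its between-replicate SD was 0.24 and its median without fasted libraries 1 and 2 was -0.036. Prps, which makes the ribose donor for nucleotides, was the one member with an unadjusted p-value under 0.05, at 148, 144 and 119 CPM in refed brains, against 171, 154 and 170 CPM in fasted brains (log2 fold change -0.28, adjusted p = 0.674 in edgeR).

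**Figure D3:**
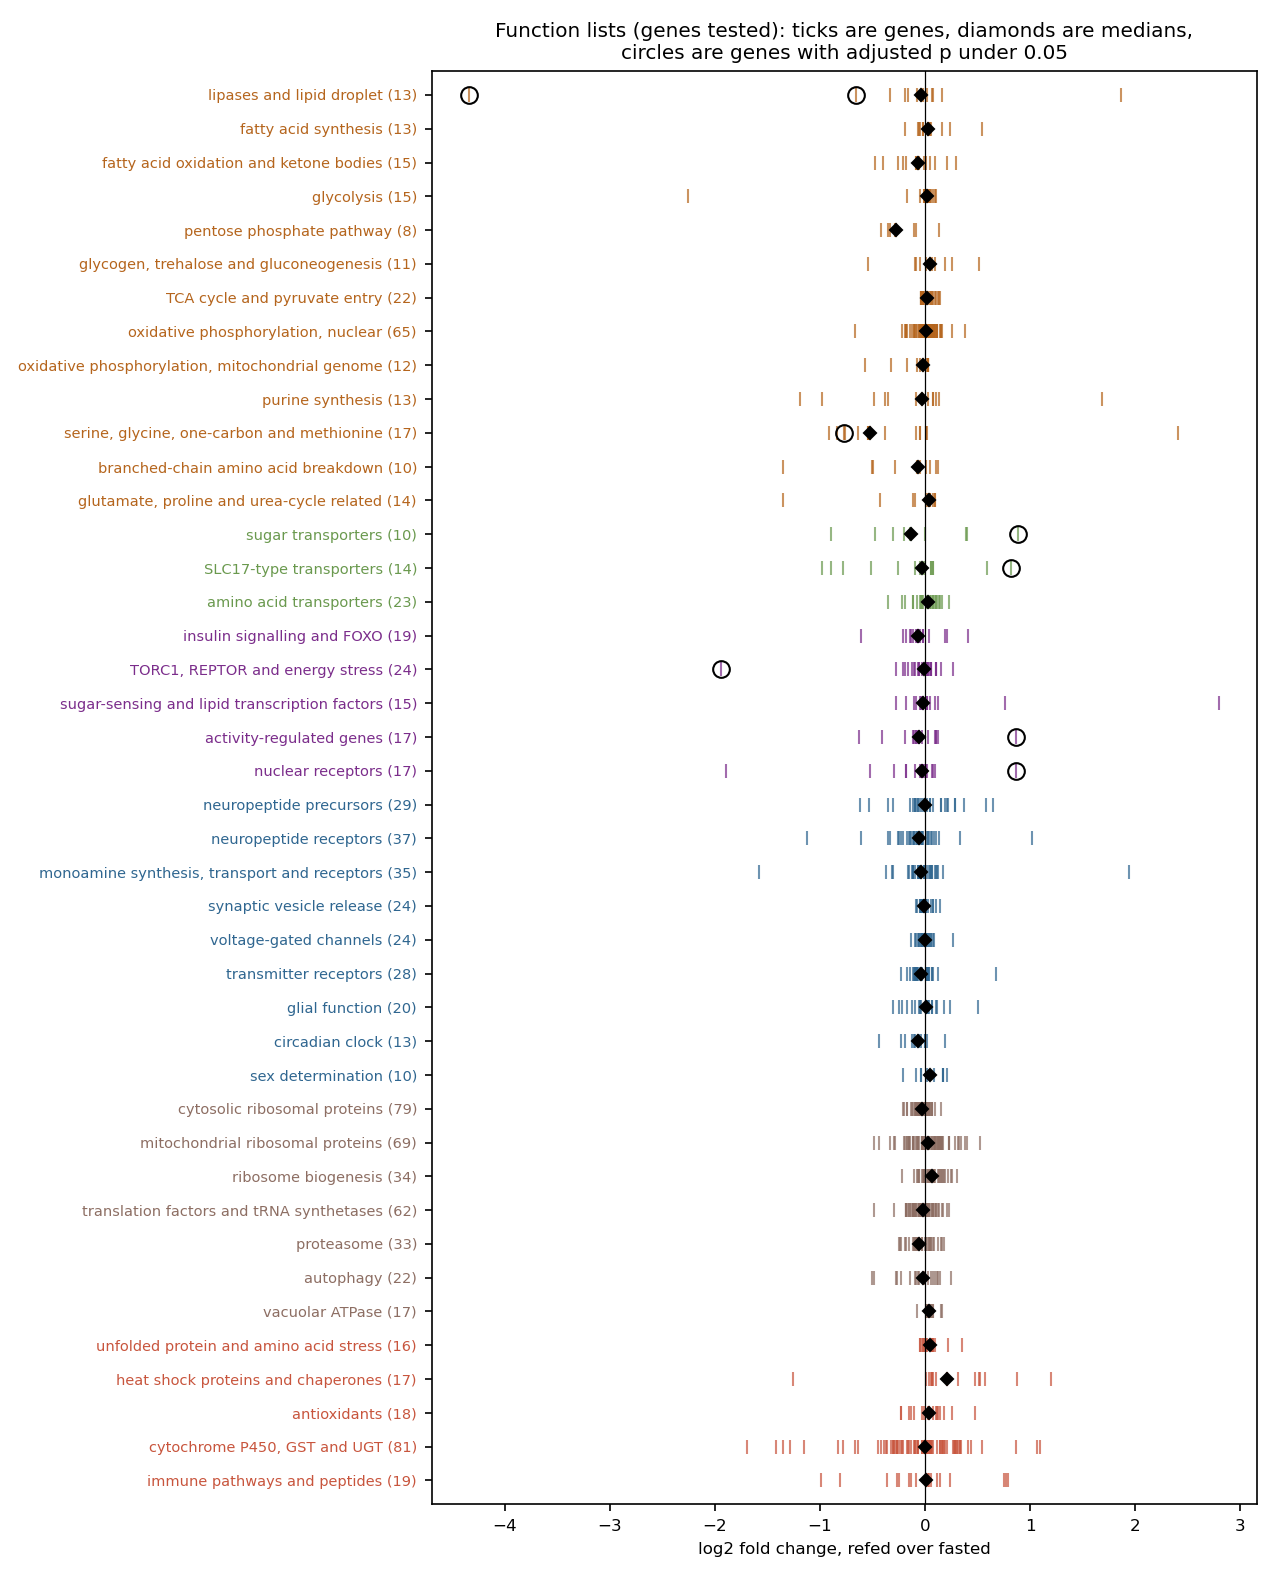
Log2 fold change (refed over fasted) of the tested genes of 42 function lists, 1 list per line with its number of tested genes. Ticks are genes, black diamonds are list medians and open circles are genes past the threshold, with Hr38 circled in 2 lists. Of the 42 medians, 38 lie within 0.1 of 0.

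Neuronal genes had list medians near 0. Of 29 neuropeptide precursors 0 passed, and the median log2 fold change was -0.0015. The gene nearest the threshold was Capa, whose peptides act on the renal tubules, at 47.9, 52.9 and 57.6 CPM in refed brains, against 34.3, 29.4 and 35.8 CPM in fasted brains. Its groups did not overlap (log2 fold change 0.65, SE 0.10, edgeR adjusted p = 0.0669), and without fasted libraries 1 and 2 its log2 fold change was 0.55 (adjusted p = 0.531). FMRFa and Mip had 0.58 and 0.28 without overlap of the groups, and corazonin (Crz) had -0.30. Of 37 neuropeptide receptors, 27 were lower in refed brains with a median of -0.062. The receptor of adipokinetic hormone (AkhR) was at 4.15, 4.60 and 2.33 CPM in refed brains, against 1.87, 2.42 and 1.27 CPM in fasted brains, and the groups overlapped slightly. TrissinR had -0.23 and PK2-R1 had -0.33.

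Transmitter systems had no gene past the threshold, and the monoamine genes ranged from -1.58 to 1.94 in log2 fold change. Among 35 monoamine genes, the octopamine and tyramine receptor Oct-TyrR was at 45.7, 51.8 and 47.6 CPM in refed brains, against 57.3, 56.6 and 64.0 CPM in fasted brains (log2 fold change -0.31, adjusted p = 0.514 in edgeR). The serotonin receptor 5-HT1A had -0.17. CG12116, listed with biopterin synthesis, was at 11.2, 6.96 and 5.49 CPM in refed brains, against 2.61, 1.41 and 2.03 CPM in fasted brains (log2 fold change 1.94, SE 0.34, edgeR adjusted p = 0.127). Its opposite-strand counts were 0.70 times its own. The GABA vesicle transporter VGAT, at 149, 153 and 152 CPM in refed brains and 131, 130 and 145 CPM in fasted brains, was the only one of 24 vesicle release genes with an unadjusted p-value under 0.05. The medians were -0.010 for vesicle release, -0.0023 for 24 voltage-gated channels and -0.038 for 28 transmitter receptors, with no gene of the 3 lists past the threshold.

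Genes of protein synthesis and turnover were also near 0. The medians were -0.027 for 79 cytosolic ribosomal proteins, 0.027 for 69 mitochondrial ones and 0.061 for 34 ribosome biogenesis genes. Of these genes 0 passed, and 2 ribosomal protein genes, RpL41 and RpL38, had an unadjusted p-value under 0.05. The proteasome had -0.059 over 33 genes and autophagy -0.017 over 22, where Atg8a, which coats autophagosomes, had -0.099 without overlap of the groups. For the vacuolar ATPase, 16 of 17 genes were higher, but the median was only 0.041 and the SD between replicates was 0.050. In the amino acid stress list, asparagine synthetase (AsnS) was at 30.9, 39.4 and 33.3 CPM in refed brains, against 29.7, 25.4 and 25.4 CPM in fasted brains (log2 fold change 0.35, adjusted p = 0.700 in edgeR).

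Heat shock genes separated 1 refed library from the other 2. Hsp83, the fly Hsp90, was at 826, 794 and 2352 CPM in refed brains, against 938, 918 and 792 CPM in fasted brains. Hsp26 was at 2.596, 3.42 and 32.8 CPM in refed brains, against 5.78, 7.85 and 3.43 CPM in fasted brains. Refed library 3 was thus high alone, while refed libraries 1 and 2 lay within the fasted range for Hsp83 and below it for Hsp26. Of 17 heat shock genes and chaperones, 16 had a log2 fold change above 0, the median was 0.21 and the SD between replicates was 0.27. Without refed library 3 the median was -0.052. None of the list passed the threshold in edgeR, and the 1 member with an unadjusted p-value under 0.05, Hsp60D, had more counts on the opposite strand than on its own.

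Most large differences lay in genes with many opposite-strand counts. An absolute log2 fold change above 1 was found for 248 genes, of which 4 passed the threshold. Of the 224 that were lower in refed brains, 169 had more counts on the opposite strand than on their own, against 1 of the 24 that were higher. Over all genes tested, 659 had more opposite-strand counts, and of these 141 had an unadjusted p-value under 0.05 as lower and 0 as higher. When fasted library 3, the one fasted library with a low opposite-strand share, was left out, 264 genes passed in edgeR, 248 of them lower in refed brains. Of these 248, 231 had more opposite-strand counts, as did 0 of the 16 higher ones. All 10 called genes were among the 264. Their own opposite-strand counts were 0.075 to 0.18 times those on the gene strand. With any one library other than fasted library 3 left out, MFS14 and Tdh no longer passed, at edgeR adjusted p-values of 0.0570 to 0.191 for MFS14 and 0.0570 to 0.199 for Tdh. pippin also passed without fasted library 1 (0.0357) and CG9377 without refed library 3 (0.0306), and neither passed when one of the other 4 libraries was left out. With the 659 genes left out before the test, 13 genes passed, namely the 10 and also Capa, Bcat and aay. With fasted libraries 1 and 2 left out, 7 passed, of which CG5966, CG13607, Lst, pippin and CG9377 belong to the 10.

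**Figure D4:**
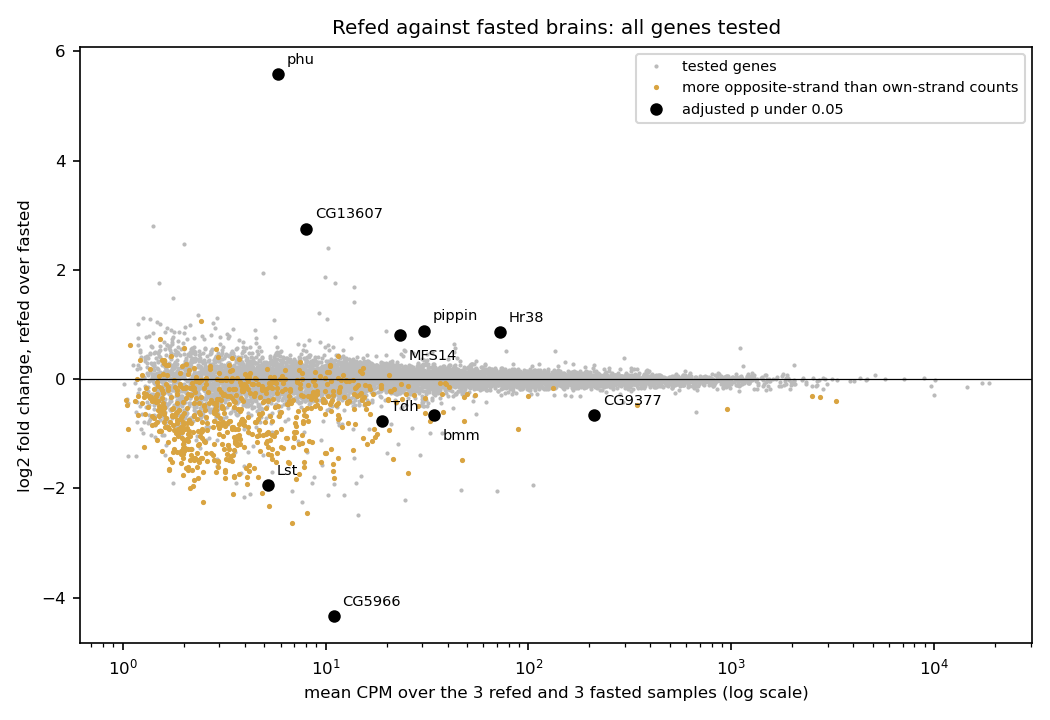
Log2 fold change (refed over fasted) against mean CPM over the 6 samples (log scale) for the 9025 genes tested. Black points are the 10 genes past the threshold, and orange points are the 659 genes counted more often on the opposite strand than on their own, which gather below 0 at low CPM.

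Muscle RNA also marked a single fasted library. The muscle markers summed to 138, 97.6 and 79.8 CPM in refed brains, against 166, 690 and 99.2 CPM in fasted brains. Fasted library 2 was high, and Mhc, the muscle myosin, was at 26.2, 13.7 and 13.9 CPM in refed brains, against 36.0, 174 and 14.2 CPM in fasted brains. The list's median log2 fold change was -1.72 over 11 tested genes and -0.31 without fasted library 2. Act88F, an actin of the flight muscle, was at no more than 0.403 CPM in any refed or fasted library. Photoreceptor markers summed to 1795, 1642 and 1568 CPM in refed brains, against 1521, 1332 and 1861 CPM in fasted brains, and the groups overlapped. The rhodopsin ninaE was at 65.3, 2.76 and 72.0 CPM in refed brains and 8.02, 108 and 12.3 CPM in fasted brains. Fat body markers summed to 2413 to 2964 CPM in refed brains and 2330 to 2730 CPM in fasted brains, nearly all from apolpp and FASN1, which other cells also express, while the fat body storage protein Lsp2 stayed at or below 0.201 CPM in these 6 libraries. Hemocyte markers summed to 452 to 510 CPM in refed brains and 433 to 503 CPM in fasted brains. Among them, Hml was at 77.9 to 126.9 CPM in refed brains and 69.5 to 134.1 CPM in fasted brains. Pxn was at 239.7 to 242.2 CPM in refed brains and 220.1 to 238.3 CPM in fasted brains. He was at 0 in all 6 libraries. Gut and salivary gland markers summed to 185 to 225 CPM in refed brains and 200.1 to 224 CPM in fasted brains, nearly all from LManII, and the trypsin gene betaTry was at 3.84 CPM in refed library 3 and at 0 in the other 5. The part of these tissues in the gene differences was not tested.

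The 20 genes next after the 10 by p-value, among those with non-overlapping groups, were 10 higher and 10 lower in refed brains. They did not pass the threshold, and 10 of them are described above. Among the higher ones, the aldehyde oxidase AOX1 was at 43.7, 36.0 and 36.6 CPM in refed brains, against 26.7, 17.7 and 21.3 CPM in fasted brains (log2 fold change 0.81, adjusted p = 0.127 in edgeR). CG13659 was at 7.53, 7.88 and 7.27 CPM in refed brains, against 3.92, 3.22 and 3.43 CPM in fasted brains, a log2 fold change of 1.09. CG9451 had 1.77, at 26.7, 13.5 and 11.2 CPM in refed brains, against 4.48, 5.44 and 5.08 CPM in fasted brains. karmoisin (kar), a relative of monocarboxylate transporters known from eye pigmentation, had 0.53. Among the lower ones, the sorbitol dehydrogenase Sodh1, which oxidises polyols, was at 10.4, 8.01 and 3.98 CPM in refed brains, against 22.8, 20.9 and 17.3 CPM in fasted brains (log2 fold change -1.44, SE 0.27, edgeR adjusted p = 0.160). The secreted phospholipase GIIIspla2 had -0.78, and the leucine-rich repeat protein artichoke (atk) had -1.69 (adjusted p = 0.188 and 0.191 in edgeR). lin-52 belongs to the 20 too, with opposite-strand counts 2.26 times its own.

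**Figure D5:**
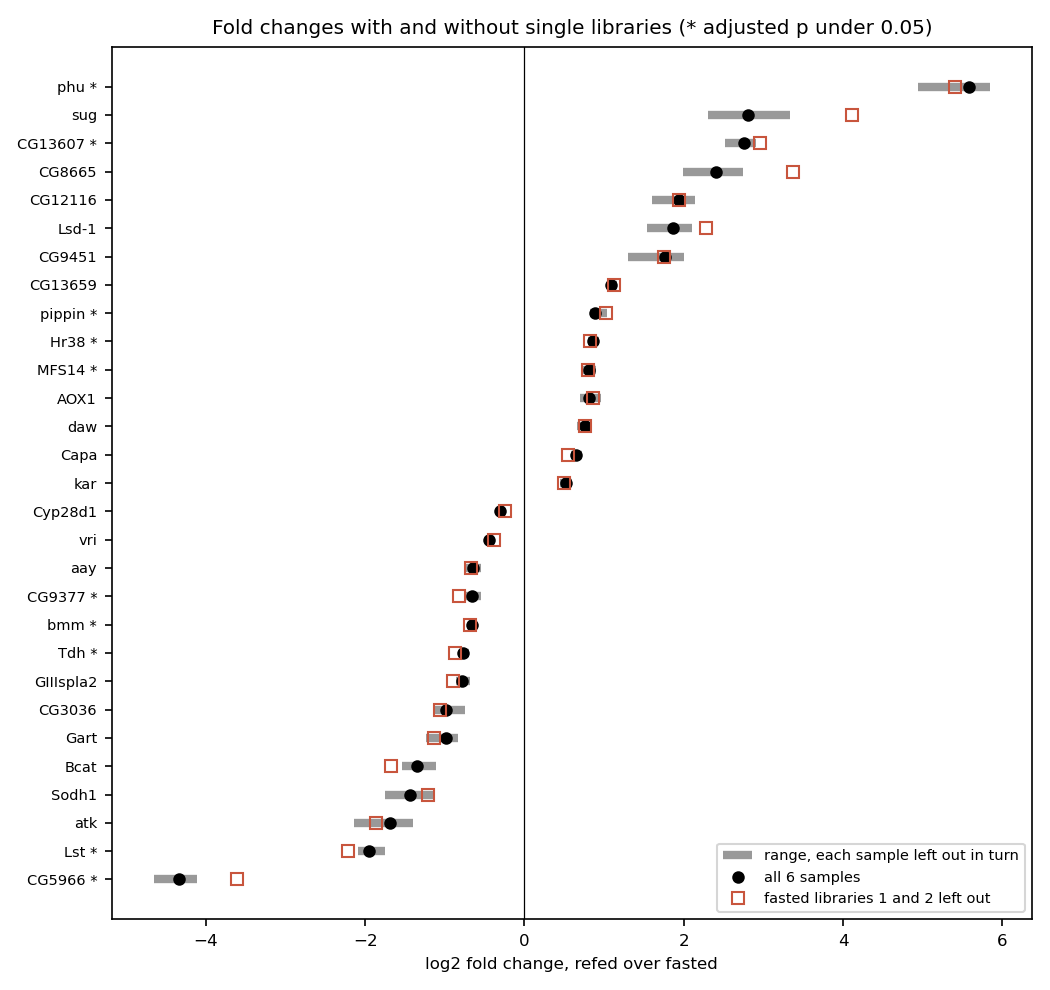
Log2 fold change (refed over fasted) of the 10 genes past the threshold (starred) and of 19 of the next 20 genes, lin-52 excepted. Black points use all 6 samples, grey bars span the values with each sample left out in turn, and open squares leave out fasted libraries 1 and 2. The refed and fasted values of all 29 genes do not overlap, so the grey bars and squares could hardly cross 0.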

How the data were processed

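RNA-seq of pooled central brains was analysed from the whole-number counts per gene that the authors deposited, which were not normalized. The submitters' processing notes name STAR, SAMtools 1.4, HTSeq, DESeq2 1.18.0 and the build BDGP6. The gene-strand counts were used, without the lines for unassigned reads. Symbols and coordinates came from Ensembl release 115 of BDGP6 (17215 of 17489 genes), and 88 further identifiers were named from the study's supplementary table. Refed and fasted samples, grouped by their labels, were compared in R 4.3.3 with edgeR 4.0.16 (filterByExpr, TMM, glmQLFit and glmQLFTest, two-sided, Benjamini-Hochberg over 9025 genes, threshold 0.05). The SE of a fold change was its log2 size over the root of the F statistic. CPM used TMM factors over all 9 samples. A list's SD is that of its median log2(CPM + 0.5) between replicates. The fits were tested on simulated counts. Gene strand depth was 4957138 to 7890221 counts in these 6 libraries, and precision for genes with few counts is low. Counting intervals (exact, 95%) cover counting error only, since the reads carry no molecular identifiers and may count 1 molecule repeatedly. Replicate pairs differed beyond sampling noise, and the labels call the samples biological replicates, 4 per condition, of which 3 were analysed here.

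Named were all genes past the threshold, the 20 next by p-value with non-overlapping groups and a mean of at least 1 CPM, up to 4 members of each list with the smallest unadjusted p-values under 0.05, and neighbours or contrasts of these (Lsd-2, Mondo, CG8910, sr, Glut1, Sam-S, Ahcy, Prat, BckdhA, BckdhB, Akh, Hsp83 and Hsp26), the last chosen after their values were seen. The members and lists were chosen with earlier results of these data known. Of the listed names, 14 could not be matched. The alternatives were DESeq2 1.42.0, RLE and upper-quartile scaling, no filter, at least 10 counts in each of the 6 samples, a fit of all 9 samples, the replicate number as a block, unstranded counts, robust empirical Bayes, a covariate for the opposite-strand share, removal of genes with more opposite-strand counts, fasted libraries 1 and 2 left out, and each sample left out in turn.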

Additional observations from a re-analysis of the deposited data

How the results depend on the processing

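RLE and upper-quartile scaling gave the same 10 genes as the main analysis. The fit of all 9 samples called 10 genes, of which 6 were among those of the main analysis. Hr38, MFS14, pippin and CG9377 did not pass in it, at edgeR adjusted p-values of 0.0950 to 0.237. Robust empirical Bayes called 10 genes and shared 8 with the main analysis, without phu and CG9377. The filter of at least 10 counts called 8 genes, all among the 10, and did not test the other 2. DESeq2 called 30 genes (13 higher and 17 lower in refed brains), the unfiltered test 31 (17 and 14), unstranded counts 20 (12 and 8), and the opposite-strand share as a covariate 6 (2 and 4). Leaving out both fasted libraries 1 and 2 gave 7 genes, 2 of them higher, and assumes that the 1 fasted library left varies like the refed ones. All 10 genes were among those of DESeq2 and of the unfiltered test, and 9 among those of the unstranded counts. With 1 library left out, 2 to 264 genes passed (1 to 16 higher, 1 to 248 lower). The lowest number was without fasted library 1 and the highest without fasted library 3, and any other library left out gave 4 or 5. With the replicate number as a block, 6 genes passed (3 higher and 3 lower), of which 5 were among the 10. Same-numbered refed and fasted samples had deviations that correlated at 0.066, -0.017 and 0.20, so the numbers were not taken as pairs. Of 1803 values of the 101 named genes under the alternatives, 54 lost and 80 gained a call and 4 changed sign. These 4 belong to genes with more opposite-strand counts. Cyp49a1 had 0.028 with unstranded counts and 0.066 without fasted libraries 1 and 2, and Hsp60D had 0.13 with the covariate and 0.42 without those libraries. Of 756 list medians, 71 moved by more than the list's SD between replicates. The cause of these shifts was not tested. Depth limits genes such as phu, Lst and sug, with under 10 to 79 counts in a fasted library.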

Other observations

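Clock, detoxification and immune genes were not part of the account above. Of 13 circadian clock genes, 11 were lower in refed brains and 0 passed the threshold. vrille (vri), a repressor in the second loop of the clock, was at 31.8, 31.4 and 31.1 CPM in refed brains, against 41.2, 45.5 and 40.7 CPM in fasted brains. Its groups were tight and did not overlap, with a log2 fold change of -0.44 (SE 0.08, edgeR adjusted p = 0.127). timeless (tim) had -0.23 and the blue-light receptor cry had 0.19, both without overlap of the groups. The list's median was -0.067, and -0.13 without fasted libraries 1 and 2. Fasted flies were dissected after the refed flies on the same day. Feeding state and time of day thus cannot be told apart for these genes, as for all others tested.

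Among 81 tested cytochrome P450, glutathione transferase and UDP-glycosyltransferase genes, 15 of which had more opposite-strand counts, 0 passed the threshold. Cyp28d1 was at 153, 141 and 144 CPM in refed brains, against 189, 175 and 172 CPM in fasted brains (log2 fold change -0.30, SE 0.05, edgeR adjusted p = 0.138). The glutathione transferases GstD1 and GstS1 had -0.29 and -0.22, and their groups did not overlap. The list's median was -0.0012. Of 63 immune genes in the files 19 could be tested, and 0 passed. cactus (cact), the inhibitor that holds back Toll signalling, was at 78.8, 80.9 and 80.4 CPM in refed brains, against 91.2, 98.9 and 93.1 CPM in fasted brains (log2 fold change -0.25, adjusted p = 0.319 in edgeR). The NF-kappaB factor Dif had -0.15, and the Bomanin BomBc2 had 0.77 at 8.31, 7.09 and 5.90 CPM in refed brains and 4.10, 4.23 and 4.07 CPM in fasted brains. The sex determination list had a median of 0.048 over 10 genes, with 0 past the threshold.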
